A study of Mus musculus with 273 samples.

Results

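The 12 h component of miRNA abundance in mouse liver was measured in all 77 liver libraries of a time course that holds 273 libraries of liver, cortex, hypothalamus and striatum. The liver donors were wild-type C57BL/6J males, an inbred strain, at an age of 26 weeks, with tissue taken every 3 h over 36 h, and no group carried a treatment or an altered allele. The libraries were chosen by tissue alone. For each miRNA hairpin, the 12 h cosine and sine were tested as a pair in a fit that also held those of 24 h. Zeitgeber time (ZT) folds the time points onto 24 h. ZT0, ZT3, ZT6 and ZT12 had 12 libraries each, ZT9 had 11, and ZT15, ZT18 and ZT21 had 6 each. Nothing in the labels states when the lights were on. Each liver library carried its own code in the labels, and nothing there says that a code stands for a separate animal, so p-values measure only the spread between these libraries.

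Most rhythmic liver transcripts follow the day, driven by the circadian clock and by feeding. A smaller set of liver mRNAs is known to cycle with a period near 12 h, and genes of the unfolded protein response, by which a cell adjusts its endoplasmic reticulum to its load of new protein, are the best known among them. A 12 h term also takes up the shape of a daily wave that is not a plain cosine, so it does not by itself name a separate oscillator. A miRNA is cut from a hairpin in a longer transcript, and bases 2 to 8 of the mature strand, the seed, pair with target mRNAs. A primary transcript can hold several hairpins, as for miR-17, miR-18a, miR-19a, miR-20a, miR-19b-1 and miR-92a-1, which are processed from a single transcript linked to cell growth and proliferation. Mature miRNAs can be long-lived, which damps rhythms of their transcription.

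The sequences that follow belong to hairpins with the smallest 12 h p-values and show which of them share a seed. Capitals mark the seed, each strand is written 5′ to 3′, and the sequences and positions are from RefSeq on GRCm38.p6. The counts add both arms of a hairpin, so the strand shown is not the measured quantity.
mmu-miR-17-5p: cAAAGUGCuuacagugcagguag
mmu-miR-20a-5p: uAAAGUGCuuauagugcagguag
mmu-miR-93-5p: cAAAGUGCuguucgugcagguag
mmu-miR-18a-5p: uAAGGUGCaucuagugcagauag
mmu-miR-24-3p: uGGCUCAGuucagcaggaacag
mmu-miR-324-5p: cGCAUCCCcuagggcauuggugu
mmu-miR-128-3p: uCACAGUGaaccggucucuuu
mmu-miR-411-5p: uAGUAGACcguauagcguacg
mmu-miR-542-3p: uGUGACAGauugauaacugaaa
The first 3 share the seed AAAGUGC with miR-106b-5p. The miR-18a-5p seed is AAGGUGC. The miR-24-1 and miR-24-2 hairpins, on different chromosomes, give the same miR-24-3p strand, so their reads could be split between them by the counting. The same limit holds for other hairpins numbered as copies, among them miR-128-1, miR-92a-1, miR-16-1 and miR-29b-1. Of the 258 hairpins tested, 226 had a single RefSeq position.

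No liver hairpin passed the 12 h test. Of 258 hairpins tested with edgeR's quasi-likelihood test, 0 had a Benjamini-Hochberg adjusted p under 0.05, a called share of 0%, and the lowest adjusted p was 0.822. At an unadjusted p under 0.05 there were 11, a share of 4.26%, where 5% would fall if p-values were spread evenly. DESeq2 called 0 with 9 at an unadjusted p under 0.05, and limma voom called 0 with 10. The same fit called 10 hairpins for the 24 h terms, 3.88% of those tested, and 53, or 20.5%, had an unadjusted p under 0.05. The next harmonic, of period 8 h, gave 0 calls (0%) and 10 hairpins (3.88%) at an unadjusted p under 0.05. Differences between ZT groups beyond both periods likewise gave 0 calls (0%), with 15 hairpins (5.81%) at an unadjusted p under 0.05. A p that misses the threshold does not show that a 12 h component is absent, and the bounds on its size are given further on.

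**Figure D1:**
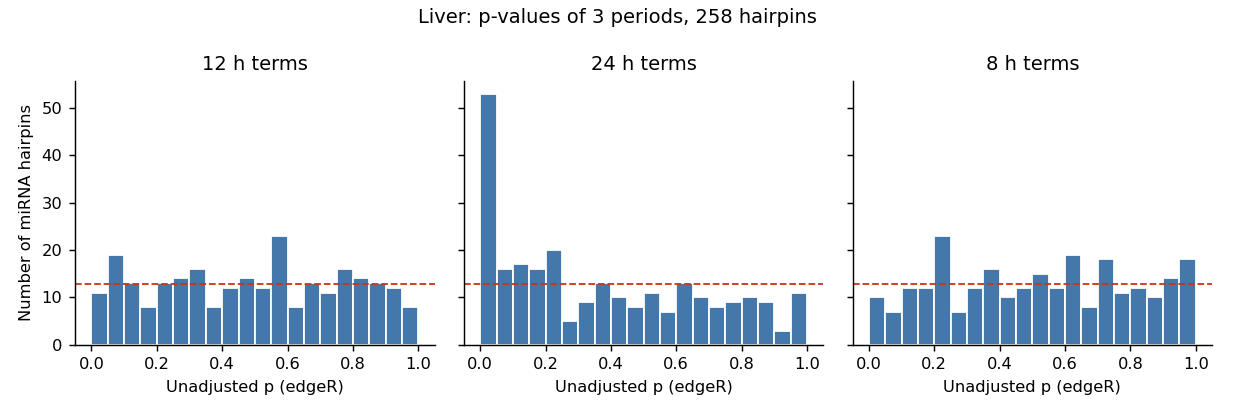
Number of liver hairpins (y axis) in 20 equal bins of unadjusted p (x axis) for the 12 h, 24 h and 8 h terms, each over 258 hairpins. The dashed line is the even level of 12.9 per bin: the first bin holds 11 hairpins for 12 h, 53 for 24 h and 10 for 8 h.

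Total counts ran from 1988671 to 5236177 per library with a median of 2920409, so a count of 0 allows up to 3 counts, or 0.573 to 1.51 CPM of the plain library total, which covers counting error only. All other liver levels are CPM after TMM scaling unless said otherwise. Taken as a sum, hepatocyte miRNAs were abundant in every library. On average miR-192 stood at 292880 CPM and miR-148a at 96439 CPM, and miR-122 had a median of 21355 CPM. Others on the list were scarcer, with medians of 921 CPM for miR-194-2 and 395 CPM for miR-802. The summed level of the 8 hepatocyte hairpins tested ran from 340600.2 to 500254 CPM. Striated muscle hairpins were near 0, with a highest mean of 0.00765 CPM among the 6 listed, and none passed the count filter. The library that stood apart was ZT9 replicate 4. Its correlation with the profile of medians was 0.966, and the next lowest was 0.990. In it 38 of 175 hairpins of at least 10 CPM differed by more than 2-fold from their median over the libraries. The next highest such number was 6, and the median over libraries was 1. The red cell miRNA miR-451a reached 6483 CPM there and had a median of 766 CPM over all libraries. The summed level of the 4 erythroid hairpins averaged 1596 CPM at ZT9, its highest, and 946 CPM at ZT18, its lowest, and its highest library was at 7008 CPM. That ZT9 mean includes ZT9 replicate 4, and a mean without it was not taken. Without ZT9 replicate 4 the 12 h test again called 0 hairpins, with 11 at an unadjusted p under 0.05 and a lowest adjusted p of 0.974.

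The 12 h components were small. Size is the peak-to-trough ratio of the fitted 12 h wave, whose median over the 258 hairpins was 0.12 on the log2 scale, beside 0.15 for the 24 h wave. The 12 h ratio was above the 24 h ratio in 98 of 258 hairpins, or 38.0%. From the joint 95% region of the cosine and sine, the upper bound of the 12 h ratio was below 1.25-fold for 104 hairpins, below 1.5-fold for 192 and below 2-fold for 247. The median upper bound was 1.32-fold. Precision followed abundance. The median bound was 1.14-fold for the 40 hairpins of at least 1000 CPM and 1.59-fold for the 83 under 10 CPM. The ratio itself, which cannot fall below 0, had a median of 0.06 in the former and 0.20 in the latter on the log2 scale. A median ratio over a group of hairpins therefore also follows their abundance. For the abundant hairpins of liver the bounds were narrow. For miR-192, the most abundant, the ratio was 0.07 ± 0.06 (SE) on the log2 scale and the upper bound 1.17-fold. For miR-22, at 168945 CPM, the ratio was 0.04 ± 0.06 (SE) with a bound of 1.14-fold. The upper bounds for miR-148a, miR-30a and miR-10a were 1.13-fold, 1.17-fold and 1.27-fold.

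**Figure D2:**
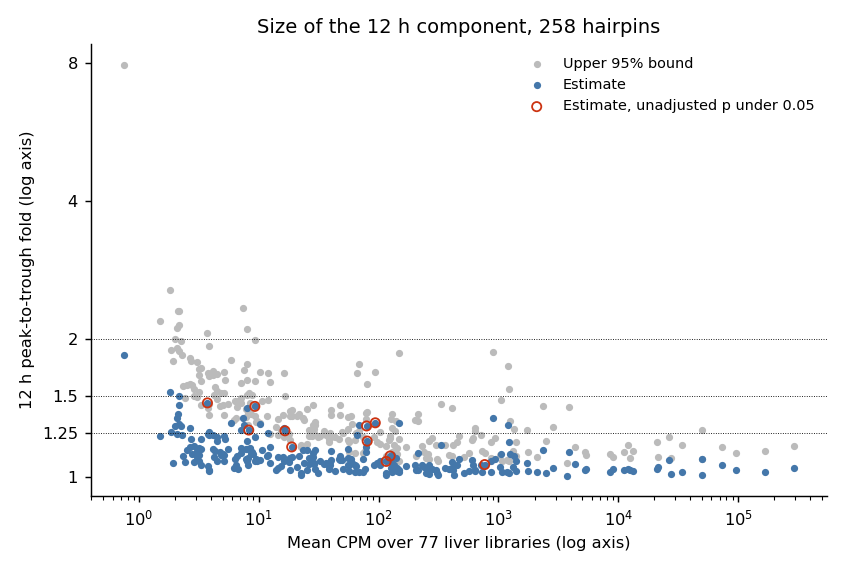
Fold between peak and trough of the fitted 12 h wave (y axis, log scale) against mean CPM over 77 liver libraries (x axis, log scale) for 258 hairpins, as the estimate (blue) and its upper 95% bound (grey). Red rings mark the 11 hairpins at an unadjusted p under 0.05; the dotted lines are 1.25-fold, 1.5-fold and 2-fold, and 247 bounds lie below 2-fold.

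The 11 hairpins at an unadjusted p under 0.05 were miR-324, miR-128-1, miR-20a, miR-17, miR-328, miR-411, miR-93, miR-24-1, miR-18a, miR-24-2 and miR-542. All 11 had the adjusted p of 0.822. Because their p-values chose them, the values that follow describe them and support nothing. Their ratios ran from 0.09 to 0.54 on the log2 scale, or 1.06-fold to 1.45-fold. In 8 of the 11 the first peak of the 12 h wave, read between ZT0 and ZT12, fell at ZT9 or later, where 91 of all 258 had theirs. The nearest hairpins inside the threshold were miR-24-2 (p = 0.0382) and miR-542 (p = 0.0493), and the nearest outside it were miR-137 (p = 0.0507) and miR-32 (p = 0.0529), all from edgeR before adjustment.

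Of these, miR-324 had the smallest p. Its hairpin lies at chr11:70012043-70012131 on the plus strand, within an exon of Dvl2 on the same strand and an intron of Acadvl on the other. Over the 17 libraries at ZT9 and ZT21, near its 12 h peaks, the lowest, median and highest levels were 12.1, 17.1 and 40.1 CPM. Over the 18 libraries at ZT3 and ZT15, near its troughs, they were 11.3, 15.1 and 22.01 CPM. The groups overlapped almost wholly, and 1 peak library, ZT9 replicate 4, lay above every trough library. The fitted ratio was 0.34 ± 0.10 (SE) on the log2 scale with a first peak at ZT9.92 (edgeR p = 0.00479 unadjusted and 0.822 adjusted). Without ZT9 replicate 4 the ratio was 0.26 and the unadjusted p 0.0112. When the fit included library run (defined with miR-411), its unadjusted p was 0.00558. In that fit 6 of the 11 kept an unadjusted p under 0.05, and the other 5 were miR-20a (0.0721), miR-328 (0.0872), miR-24-1 (0.0682), miR-18a (0.105) and miR-24-2 (0.125).

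The miR-17/92 cluster, a growth-linked transcript on chromosome 14, supplied 3 of the 11. Its members miR-17 (chr14:115043671-115043754), miR-18a (chr14:115043851-115043946) and miR-20a (chr14:115044157-115044263) lie on the plus strand in exons of its host gene Mir17hg. For miR-20a the lowest, median and highest levels were 56.3, 79.1 and 282 CPM at ZT9 and ZT21 and 55.3, 70.0 and 88.6 CPM at ZT3 and ZT15. The highest of these values, from ZT9 replicate 4, was more than double the next highest of all liver libraries, 125 CPM. For miR-17 the corresponding levels were 53.3, 76.7 and 151 CPM near the peaks and 62.1, 67.2 and 88.0 CPM near the troughs. Peak and trough libraries overlapped for both, with 4 of 17 peak libraries of miR-20a and 6 of 17 of miR-17 above every trough library. The fitted ratio of miR-20a was 0.37 ± 0.12 (SE) on the log2 scale, first peak ZT9.49 (edgeR p = 0.0118 unadjusted). For miR-17 the ratio was 0.26 ± 0.09 (SE), first peak ZT9.66 (edgeR p = 0.0133 unadjusted). The scarcer miR-18a averaged 9.24 CPM and had a ratio of 0.51 ± 0.19 (SE), first peak ZT9.09 (edgeR p = 0.0366 unadjusted). It stood at 49.0 CPM in ZT9 replicate 4 and at most at 18.2 CPM in any other library.

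Leaving out ZT9 replicate 4 moved these values. The ratio of miR-20a was then 0.21 (unadjusted p = 0.0717), that of miR-17 0.20 (unadjusted p = 0.0415) and that of miR-18a 0.28 (unadjusted p = 0.240), all from edgeR. That library differed in many hairpins besides those of red cells, with miR-22 at 52889 CPM against a median of 170127 CPM and miR-10a at 123132 against 49083 CPM, and the part of red cell RNA in these values was not tested. The other tested members of the cluster differed among themselves. The ratio of miR-19a was 0.19 ± 0.12 (SE) with a first peak at ZT9.09 (edgeR p = 0.276 unadjusted). The most abundant member by far, miR-92a-1 at 21220 CPM, had a ratio of 0.06 ± 0.08 (SE), an upper bound of 1.19-fold and a first peak at ZT1.51. The remaining member, miR-19b-1, averaged 0.373 CPM of the plain library total and was not tested. Its second copy, miR-19b-2, averaged 1.02 CPM of that total, and miR-92a-2, the second copy of miR-92a-1, 280 CPM. How reads that match both copies were counted is not given, so these levels may not be those of 1 hairpin.

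The related cluster in Mcm7, a gene of DNA replication, holds miR-106b, miR-93 and miR-25. At chr5:138165523-138165610 on the minus strand, miR-93 carries the same seed as miR-17 and averaged 767 CPM. Its levels near the peaks, at ZT9 and ZT21, had a lowest, median and highest of 675, 777 and 848 CPM, and near the troughs, at ZT3 and ZT15, of 669, 738 and 865 CPM. No peak library lay above every trough library. The ratio was 0.09 ± 0.03 (SE) on the log2 scale, 1.06-fold, with a first peak at ZT10.3 (edgeR p = 0.0320 unadjusted). The ZT15 mean was 694 CPM and the other ZT means ran from 759 to 788 CPM. Without ZT15 the ratio was 0.04 and the unadjusted p 0.397. For miR-106b the ratio was 0.13 ± 0.06 (SE) with a first peak at ZT9.38 (edgeR p = 0.104 unadjusted), and for miR-25 it was 0.05 ± 0.04 (SE) with a first peak at ZT8.15 (edgeR p = 0.523 unadjusted). Over both clusters and the third related one, 9 of 15 hairpins were tested, 0 passed the adjusted threshold and 4 had an unadjusted p under 0.05, where 4.26% of all hairpins did. The list was chosen with earlier results of these data known, and hairpins of 1 transcript need not vary independently. Of the 4, miR-20a (0.0717) and miR-18a (0.240) had an unadjusted edgeR p over 0.05 without ZT9 replicate 4. The median ratio was 0.13, beside 0.12 over all hairpins tested, without matching for abundance.

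**Figure D3:**
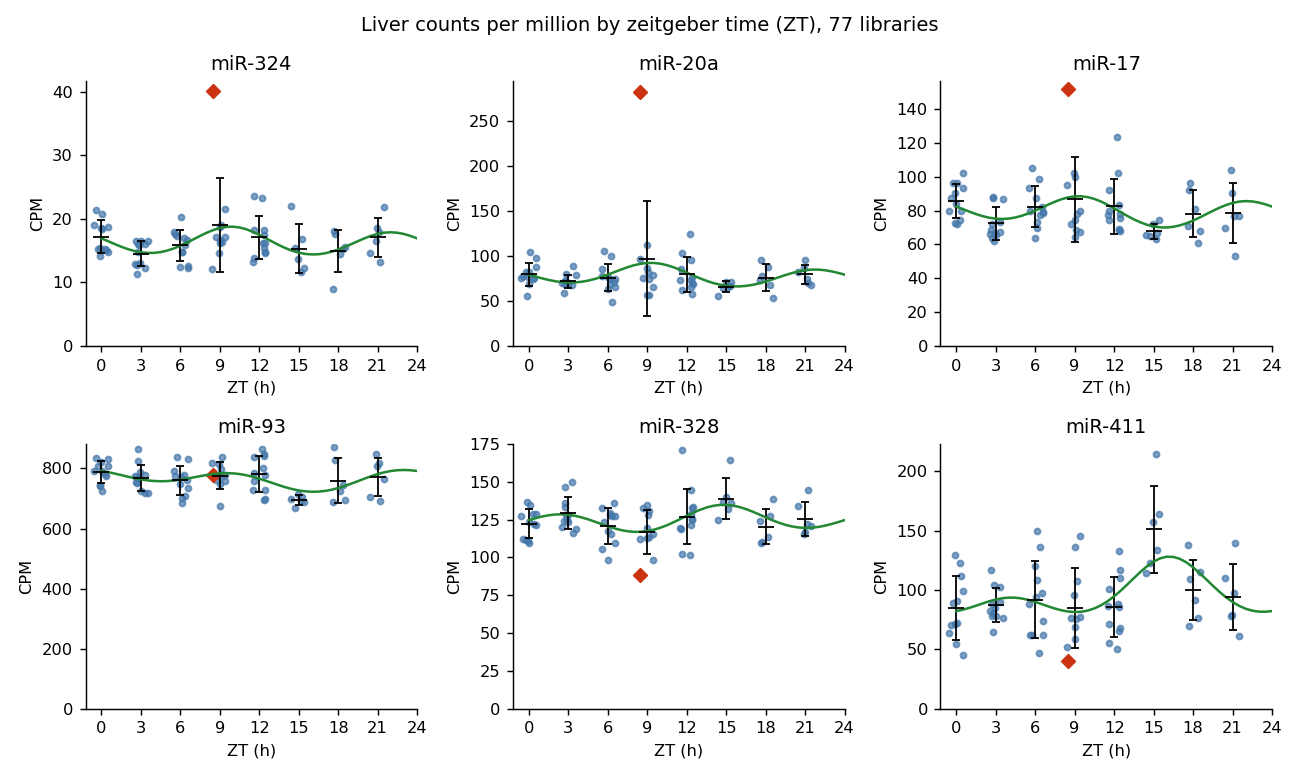
CPM (y axis, from 0) by ZT in hours (x axis) for 6 of the 11 hairpins; points are the 77 liver libraries, black bars the mean ± SD of each ZT group, and the green line the fit with 24 h and 12 h terms. The red diamond is ZT9 replicate 4, at 40.1 CPM for miR-324 and 282 CPM for miR-20a; the 6 ZT15 libraries of miR-411 average 151 CPM.

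The imprinted Dlk1-Dio3 region holds a maternally expressed miRNA group abundant in brain, and most of its tested hairpins had their highest ZT mean at ZT15. In liver 12 of the 32 listed were tested, with 0 past the adjusted threshold for 12 h and 0 for 24 h. At an unadjusted 12 h p under 0.05 there was 1, miR-411. All 12 had their first 12 h peak between ZT2.65 and ZT5.01, which puts the other peak 12 h later. Of all 258 hairpins tested, 54 had theirs before ZT3 and 70 from ZT3 to ZT6. In 11 of the 12 the highest ZT mean was that of ZT15, the exception being miR-299a. ZT15 held 6 libraries, and how many of all hairpins had their highest mean there was not counted, so the 11 cannot be set against a share of all hairpins. Hairpins of 1 region need not vary independently. Summed over the 12, the ZT15 libraries had a lowest, median and highest of 747, 872 and 1186 CPM. At ZT3, 12 h away, the corresponding values were 444, 574 and 674 CPM. The ZT15 sums lay above all those of ZT3 and of ZT18, whose highest was 714 CPM, and overlapped those of the other ZT groups. The median ratio of the 12 h wave was 0.30 and that of the 24 h wave 0.47 on the log2 scale.

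For miR-411 (chr12:109710175-109710256, plus strand) the lowest, median and highest levels at ZT15 were 115, 146 and 215 CPM. At ZT3 they were 65.1, 83.4 and 117 CPM, and at ZT9 40.1, 76.7 and 146 CPM. The ZT15 mean was 151 CPM and the other ZT means ran from 84.9 to 100.1 CPM. The 12 h ratio was 0.39 ± 0.15 (SE) on the log2 scale, first peak ZT4.19 (edgeR p = 0.0278 unadjusted), and the 24 h ratio was 0.45. Without ZT15 the 12 h ratio was 0.18 (edgeR p = 0.463 unadjusted). Library run was taken as a stretch of consecutive library numbers with 1 L code, whose meaning the labels do not give. ZT15 libraries fell in 3 of the 5 liver runs. Within those runs the ZT15 means of miR-411 were 131, 174 and 165 CPM, from 3, 2 and 1 libraries, and the means of the other ZT were 97.6, 100.3 and 102 CPM. In a fit that included run the unadjusted p was 0.0482 and the adjusted p 0.900.

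Of the remaining hairpins among the 11, miR-128-1 and miR-328 had fitted 12 h peaks near the fitted troughs of miR-17. Neurons are rich in miR-128-1 (chr1:128202361-128202430, plus strand, in an intron of R3hdm1), which averaged 8.22 CPM in liver. Near its peaks, at ZT3 and ZT15, the lowest, median and highest levels were 4.36, 9.35 and 12.0 CPM, and near its troughs, at ZT9 and ZT21, 4.95, 7.25 and 11.4 CPM. The groups overlapped, and the ratio was 0.34 ± 0.11 (SE) on the log2 scale with a first peak at ZT3.99 (edgeR p = 0.00747 unadjusted). In the other tissues its first peak was at ZT4.29 in cortex, with a ratio of 0.30 ± 0.10 (SE), and at ZT4.01 in hypothalamus, with a ratio of 0.24 ± 0.10 (SE). In striatum the first peak was at ZT1.47, with a ratio of 0.21 ± 0.24 (SE). All 3 missed the threshold (edgeR adjusted p = 0.320, 0.737 and 0.842).

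For miR-328 the levels near the peaks, at ZT3 and ZT15, had a lowest, median and highest of 116, 130 and 164 CPM, and near the troughs, at ZT9 and ZT21, of 88.1, 120 and 144 CPM. The ratio was 0.15 ± 0.05 (SE) on the log2 scale, first peak ZT2.63 (edgeR p = 0.0189 unadjusted). The lowest of all liver libraries was again ZT9 replicate 4, at 88.1 CPM.

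Both miR-24 hairpins were among the 11. At chr8:84208815-84208921 on the plus strand, miR-24-2 averaged 115 CPM, with a ratio of 0.11 ± 0.04 (SE) and a first peak at ZT9.95 (edgeR p = 0.0382 unadjusted). The other copy, miR-24-1 (chr13:63301208-63301275, plus strand), averaged 3.72 CPM, with a ratio of 0.54 ± 0.20 (SE) and a first peak at ZT10.7 (edgeR p = 0.0324 unadjusted). The lowest library of miR-24-1, at 0.704 CPM, held 2 counts. Its highest was ZT9 replicate 4, at 9.90 CPM, without which the unadjusted edgeR p was 0.0468. The last of the 11, miR-542 (chrX:53049403-53049487, minus strand), averaged 18.8 CPM with a ratio of 0.22 ± 0.09 (SE), first peak ZT10.9 (edgeR p = 0.0493 unadjusted). ZT9 replicate 4 was its highest library too, at 34.2 CPM with 26.5 CPM next. Without that library the unadjusted edgeR p of miR-542 was 0.0638. Leaving out libraries singly gave it an unadjusted p of at least 0.05 for 48 of the 77.

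The time course passes ZT0 to ZT12 in each of 2 cycles, which allows overlapping spans to be set side by side. These spans share the libraries at 15, 18 and 21 h and so are not independent. In the libraries from 0 to 21 h, 8 of the 11 had an unadjusted p under 0.05, and in those from 15 to 36 h 4 of the 11. The first peak of miR-324 was at ZT9.87 in the first span and ZT10.2 in the second, and its ratios were 0.34 and 0.28 on the log2 scale. For miR-20a the ratios were 0.44 and 0.25, and for miR-93 they were 0.06 and 0.13. A direct test between the passages, over the libraries at ZT0 to ZT12 alone, called 0 of 242 hairpins (0%). At an unadjusted p under 0.05 there were 16 (6.61%), and the lowest adjusted p was 0.499 from edgeR. Its fit let the 12 h terms but not the 24 h terms differ between passages, so a changed 24 h wave would enter the 12 h difference. It also covered only part of the day, where waves of 24 h and 12 h are hard to separate. Among hairpins of at least 10 CPM the smallest p in that test belonged to miR-149, which was 0.65 ± 0.36 (SE) in the first passage and 1.11 ± 0.53 (SE) in the second, with first peaks at ZT1.84 and ZT11.8 (edgeR p = 0.00224 unadjusted and 0.499 adjusted). It was followed by miR-10a (p = 0.00806) and miR-674 (p = 0.00824), both at the same adjusted p from edgeR.

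**Figure D4:**
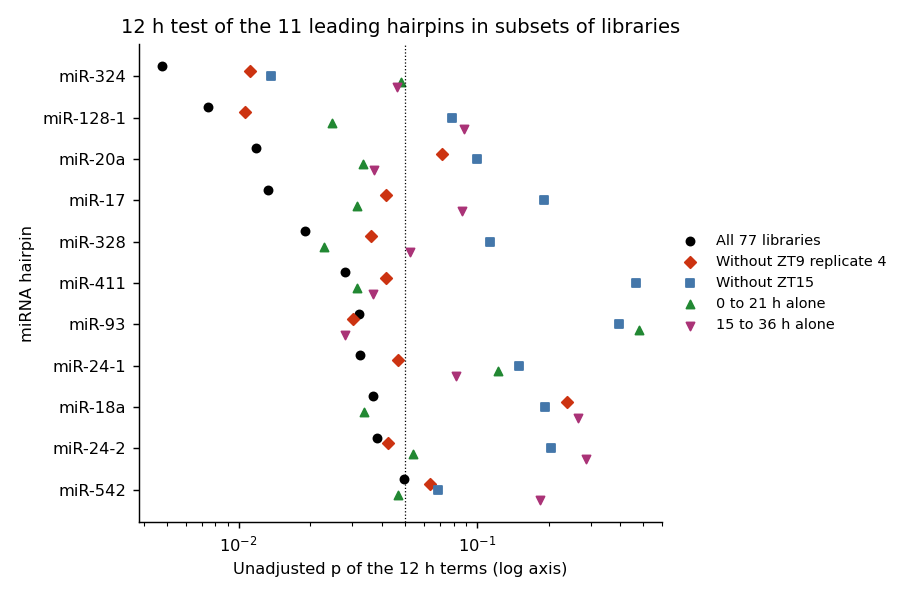
Unadjusted edgeR p of the 12 h terms (x axis, log scale) for the 11 hairpins (y axis) in all 77 liver libraries, without ZT9 replicate 4, without ZT15, and in the spans 0 to 21 h and 15 to 36 h; the dotted line is 0.05. Without ZT15, 1 of the 11 (miR-324) is left of the line, and without ZT9 replicate 4, 8 are.

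Small p-values became fewer without ZT15. Of the hairpins tested without it, 4 of 255 had an unadjusted p under 0.05, among them 1 of the 11, and the lowest adjusted p was 0.999. Without ZT9 there were 23 of 256 and the lowest adjusted p was 0.535. Calls were 0 in both.

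With 0 of all 258 hairpins called for 12 h, every gene list had to hold 0 calls. Those zeros are no result about a list. Among hairpins linked in the literature to the unfolded protein response, 14 of 17 were tested, 0 passed the adjusted threshold and 2, miR-17 and miR-93, had an unadjusted p under 0.05, a level that 11 of all 258 hairpins (4.26%) reached. Without matching for abundance, which this ratio follows, their median 12 h ratio was 0.07 on the log2 scale, beside 0.12 over all hairpins tested. Among those linked to clock genes or daily output, 42 of 48 were tested, with 0 and 3 (miR-17, miR-24-1 and miR-24-2) and a median ratio of 0.09. For lipid and glucose handling 17 of 19 were tested, with 0 and 0 and a median of 0.11. All 12 let-7 hairpins, a family that restrains growth, were tested, with 0 and 0 and a median of 0.11. For the same reason the cell type lists held 0 adjusted calls. Medians were 0.07 for 8 hepatocyte, 0.16 for 6 immune, 0.29 for 4 erythroid, 0.04 for 3 vascular, 0.14 for 2 mesenchymal and 0.14 for 5 biliary epithelial hairpins, with 0 at an unadjusted p under 0.05 in each. None of the list medians was matched for abundance, and the erythroid one includes ZT9 replicate 4. Of the 11 neuronal hairpins 2 were tested, miR-128-1 and miR-137, with a median of 0.36 and 1 at an unadjusted p under 0.05. In bulk liver, fewer cells of a type and less of its RNA per cell cannot be told apart.

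The 10 hairpins called for 24 h had a median 12 h ratio of 0.09 on the log2 scale, beside 0.12 over all hairpins tested, without matching for abundance. Their 24 h p in the same fit chose them, which favours a 24 h ratio above the 12 h ratio. All 10 had a larger 24 h than 12 h ratio: 24 h ratios ran from 0.21 to 1.64 and 12 h ratios from 0.05 to 0.20. Of the 10, 0 had an unadjusted 12 h p under 0.05, beside 4.26% of all hairpins. The lymphocyte miRNA miR-150 had a 24 h ratio of 1.31 ± 0.16 (SE) and a 12 h ratio of 0.06 ± 0.14 (SE). The scarce miR-29b-1, at 4.83 CPM, had a 24 h ratio of 1.64 ± 0.20 (SE) and a 12 h ratio of 0.16 ± 0.18 (SE). The myeloid miR-223 had 0.60 ± 0.10 (SE) for 24 h and 0.20 ± 0.09 (SE) for 12 h, the largest 12 h ratio of the 10. For miR-142a, found across white blood cells, these were 0.52 ± 0.09 (SE) and 0.15 ± 0.08 (SE). The other 6 were miR-16-1, miR-326, miR-331, miR-342, miR-744 and miR-5099, with 12 h ratios of 0.05 to 0.19. Of the 6 immune hairpins tested, a list chosen with earlier results of these data known, 4 were called for 24 h, beside 3.88% of all hairpins, and 0 for 12 h, beside 0%. The calls of miR-331 and miR-326 were lost with library run as a covariate (edgeR adjusted p = 0.1504 and 0.0877), with DESeq2 size factors (0.0720 each) and without the count filter (0.146 and 0.147). The call of miR-744 was lost without the filter (edgeR adjusted p = 0.146).

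**Figure D5:**
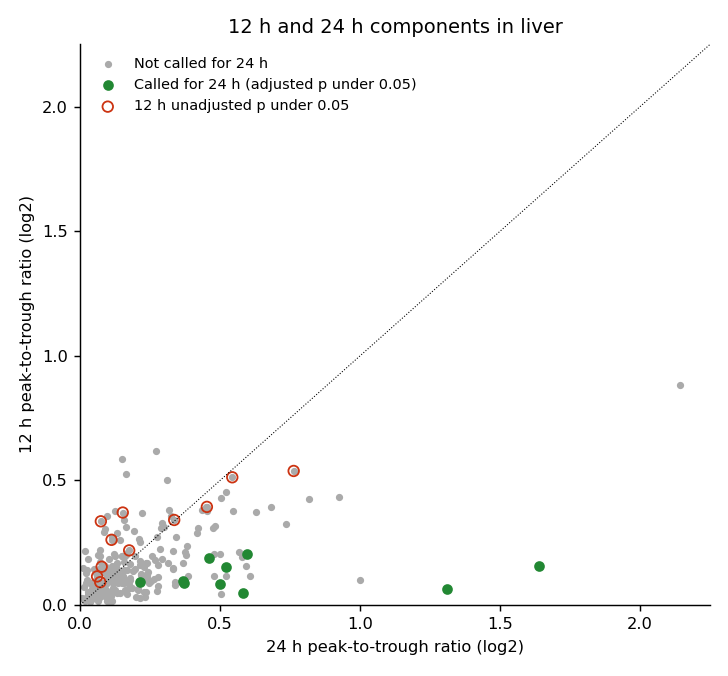
Peak-to-trough ratio of the 12 h wave (y axis, log2) against that of the 24 h wave (x axis, log2) in the same fit for 258 liver hairpins. Green points are the 10 called for 24 h, chosen by their 24 h p in this fit and all below the dotted line of equality. Red rings are the 11 at an unadjusted 12 h p under 0.05.

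Liver was set against the other tissues by a test of the difference in the 12 h terms. Against cortex, 0 of 431 hairpins (0%) were called, with 42 (9.74%) at an unadjusted p under 0.05 and a lowest adjusted p of 0.353. Against hypothalamus, 3 of 441 (0.68%) were called, and 49 (11.1%) had an unadjusted p under 0.05. The 3 were miR-375, miR-141 and miR-200c, known from endocrine and epithelial cells, and in each the larger 12 h ratio was in hypothalamus. For miR-375 the level in hypothalamus, as CPM of the plain library total, had a lowest of 272, a median of 651 and a highest of 111518 in ZT0 replicate 9. The next highest was 80244 CPM in ZT9 replicate 8, and the one after it 6648 CPM. In liver the lowest, median and highest were 0.984, 7.95 and 21.9 CPM. The fitted ratio of miR-375 was 4.63 ± 0.53 (SE) in hypothalamus and 0.10 ± 0.65 (SE) in liver on the log2 scale (edgeR adjusted p = 1.92e-04). For miR-141 these were 4.29 and 0.19 (edgeR adjusted p = 2.84e-04), and for miR-200c 4.01 and 0.38 (edgeR adjusted p = 0.0299). Without the 2 hypothalamus libraries, 0 hairpins were called, and the adjusted p of the 3 was 0.527, 0.416 and 0.780 from edgeR. Without ZT0 replicate 9 alone there were also 0 calls, and without ZT9 replicate 8 alone there were 2, miR-375 and miR-141. The CRM codes of 77 liver libraries recur in cortex and of 71 in hypothalamus. With that code as a block in limma voom, 0 hairpins were called against either tissue, with 42 at an unadjusted p under 0.05 in each.

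Tested alone, the 12 h terms gave 0 calls in 413 cortex hairpins (0%), 3 in 400 hypothalamus hairpins (0.75%) and 0 in 411 striatum hairpins (0%). At an unadjusted p under 0.05 there were 56 in cortex (13.6%), 25 in hypothalamus (6.25%) and 61 in striatum (14.8%), against 4.26% in liver. Among the 11 hairpins above, miR-17 had first peaks at ZT10.4 in cortex, ZT4.55 in hypothalamus and ZT8.98 in striatum, with ratios of 0.12 ± 0.08, 0.12 ± 0.10 and 0.74 ± 0.25 (SE) on the log2 scale. The lowest of the 3 adjusted p-values, from edgeR in striatum, was 0.199. The striatum had 46 libraries, none at ZT15 and few at ZT18, which limits its 12 h ratios and shares.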

How the data were processed

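The authors deposited raw counts of reads per hairpin. Tools listed by the submitters' processing notes are STAR 2.7.3a and HTSeq 0.10.0, with build GRCm38 (mm10). Trimming and the treatment of multiply matching reads are not given in the sources used here. Per the labels, RNA was column-extracted and enriched for small RNA. Groups, times and replicate numbers came from the labels.

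Counts were analysed in R 4.3.3 with edgeR 4.0.16: TMM scaling, filterByExpr by ZT, which kept 258 of 1226 hairpins (373 had no count in liver), and quasi-likelihood F tests with Benjamini-Hochberg adjustment over all hairpins tested, threshold 0.05. CPM are TMM-scaled, and 2 degrees of freedom were tested for each period. Standard errors of ratios and peaks are from the delta method. The scripts were tested on simulated data. Between-tissue tests added 24 h and 12 h terms for each tissue. The test between passages added a passage term and 12 h terms by passage, without 24 h terms by passage.

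Alternatives were other scalings and filters, DESeq2 1.42.0, limma 3.58.1 voom, a replicate or run term, subsets of time, and each library, ZT and time point left out. Named are the 12 smallest 12 h p-values of at least 10 CPM, the 5 largest ratios among those at an unadjusted p under 0.05, the 5 most abundant, the 2 most abundant and every member at an unadjusted p under 0.05 of each list, the 24 h calls, and the 3 smallest p of each difference test. The text gives in full those that the results turn on. The members and lists were chosen with earlier results of these data known. Replicate numbers were not used to pair libraries in the main fits. Over 224 pairs of equal number, the median correlation of deviations was 0.0345. It was -0.0117 for other pairs and 0.107 for pairs of the same run.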

Additional observations from a re-analysis of the deposited data

Results flagged for a closer look

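In the ZT groups of 6 libraries, single values stood clear of the rest by Dixon's test at the 95% level for 2 of the 45 combinations of 15 hairpins and 3 groups; chance flags about 1 in 20. In ZT18 replicate 5, miR-128-1 was at 5.03 CPM, and the other 5 libraries lay between 9.23 and 10.8 CPM. In ZT18 replicate 1, miR-32 was at 36.2 CPM, and the others lay between 28.8 and 31.1 CPM.

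The 12 h terms differed between liver and hypothalamus, by a test of the difference with edgeR, for miR-375 (adjusted p = 1.92e-04), miR-141 (adjusted p = 2.84e-04) and miR-200c (adjusted p = 0.0299). Without the 2 hypothalamus libraries ZT0 replicate 9 and ZT9 replicate 8, 0 hairpins were called. Without ZT0 replicate 9 alone there were 0 calls, and without ZT9 replicate 8 alone 2 (miR-375 and miR-141).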

How the results depend on the processing

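The liver 12 h test called 0 hairpins under all 112 alternatives, with lowest adjusted p-values down to 0.0624. That lowest value came without the count filter, for miR-8092 with 10 counts in all, where 61 of 853 hairpins had an unadjusted p under 0.05. Such counts were otherwise 4 to 23, and 7 to 16 with each library left out; they were 5 at a mean CPM of at least 10, 4 in the largest library run alone, 21 without it, 20 from 0 to 21 h, 4 without ZT15, 23 without ZT9, 20 without ZT12, 18 without ZT18, 20 without ZT21, 7 without the 3 h or the 6 h time point and 17 without that at 33 h. With the replicate block 18 had an unadjusted p under 0.05, and the lowest adjusted p was 0.210. The block also gave 31 calls for 24 h, 10 for ZT beyond both periods, and 0 between liver and hypothalamus; it left the 12 h count at 0. The largest run held 0 libraries at ZT15 and 1 at ZT21, so a fit to it alone also lacks ZT15. In that fit the 12 h peak of miR-324, miR-93, miR-24-1, miR-18a, miR-137, miR-3068, miR-25 and miR-92a-1 moved by more than 3 h, each at an adjusted p of 0.995. That of miR-92a-1 also moved so far without ZT9 (adjusted p = 0.833) and without ZT12 (0.921). Without the filter, 1 hairpin (miR-7042, 45 counts in all) was called for 8 h and 1 for ZT beyond both periods. The 3 calls between liver and hypothalamus became 0 with the CRM code as a block in limma voom, 0 without both or the first of the hypothalamus libraries named above, 2 without the second, 2 with library totals (miR-200c lost) and 4 with DESeq2 size factors. The passage difference without a filter could not be fitted. The filter by the design matrix and the tests without named libraries were chosen after seeing the data. The cause of these changes was not tested. Depth limits the scarce hairpins: 29 of 83 under 10 CPM had a bound below 1.5-fold.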
